A study of Mus musculus with 6 samples.

Results

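A set of 10 genes of cytotoxic granules and type 1 immunity was followed through the skin of epicutaneously sensitized mice: the granzymes Gzma, Gzmb and Gzmc, the pore former Prf1, the granule membrane protein Nkg7, the receptors Klrd1 and Ncr1, the secreted factors Xcl1 and Ifng, and the transcription factor Tbx21. They were taken by name, and all 10 were found among the 32285 genes of the tables. Single-cell transcriptomes came from 3 EC-OVA libraries, with the treatment label OVA-sensitized, and 3 EC-SAL libraries, with the treatment label control. All mice were of the Balb/c strain, and the tissue label of both groups, controls included, is epicutaneously sensitized skin, taken 2 days after a sensitization of 10 days; genotype, age and sex are not given. The skin was digested into a suspension, and transcripts were counted as unique molecular identifiers (UMIs) with a 10x Genomics kit. The labels give CD4 as the cell type of every library, whereas the libraries hold leukocytes beside keratinocytes, fibroblasts and endothelial cells and were treated as whole skin. Whether libraries of a group came from separate mice is not stated, so every p-value measures the spread between libraries, which may be technical.

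Cytotoxic lymphocytes store granzymes, which are serine proteases, in granules with the pore-forming protein perforin, and release both onto a target cell. Natural killer (NK) cells and killer T cells are the best known holders of these granules, and Gzmb is also known from regulatory T cells and from activated mouse basophils. Type 1 lymphocytes are defined by the transcription factor T-bet, encoded by Tbx21, and by interferon-gamma, encoded by Ifng, while allergic skin sensitization is usually described through type 2 lymphocytes and basophils.

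The 6 libraries held 24432 cells after filtering, with 3405 to 3897 cells in EC-OVA and 4108 to 4994 in EC-SAL libraries. They carried 21743490 to 22972651 UMIs in EC-OVA and 25007064 to 28049562 UMIs in EC-SAL. Lymphoid cells numbered 87, 95 and 83 in EC-OVA and 64, 46 and 42 in EC-SAL, with between 97273 and 212084 UMIs per library, which limits what can be seen in them. Clusters were made without the 10 genes, so that these did not define the cells that hold them, and a class name stands for a marker profile. Only 399 cells carried a UMI of any of the 10 genes. Of these, 7 had a barcode sequence that also occurred in another library, where 342 sequences did so among all kept cells.

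Promoter windows were drawn for the 4 granule genes that the tests below turn on and for which RefSeq gives one (build GRCm38.p6, 250 bases before to 50 after the start, shown 5′ to 3′ on the gene's strand). Capitals mark matches on either strand to 3 short motifs of factor families known from cytotoxic lymphocytes: T-box (TCACAC), RUNX (TGTGGT) and STAT (TTCNNNGAA). The windows are Gzma at chr13:113100932-113101231 on the minus strand, Gzmb at chr14:56262285-56262584 on the minus strand, Gzmc at chr14:56234608-56234907 on the minus strand and Nkg7 at chr7:43436888-43437187 on the plus strand.
Gzma: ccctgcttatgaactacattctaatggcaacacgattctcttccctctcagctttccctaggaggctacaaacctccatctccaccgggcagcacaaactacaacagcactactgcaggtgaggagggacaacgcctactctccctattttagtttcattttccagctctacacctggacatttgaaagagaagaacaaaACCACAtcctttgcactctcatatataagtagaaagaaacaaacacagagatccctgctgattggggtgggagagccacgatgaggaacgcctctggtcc
Gzmb: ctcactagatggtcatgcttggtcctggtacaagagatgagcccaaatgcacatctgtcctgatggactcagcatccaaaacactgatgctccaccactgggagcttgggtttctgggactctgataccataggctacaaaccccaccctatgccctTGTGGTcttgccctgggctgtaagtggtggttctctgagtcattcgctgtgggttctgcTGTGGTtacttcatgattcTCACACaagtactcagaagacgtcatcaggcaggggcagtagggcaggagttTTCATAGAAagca
Gzmc: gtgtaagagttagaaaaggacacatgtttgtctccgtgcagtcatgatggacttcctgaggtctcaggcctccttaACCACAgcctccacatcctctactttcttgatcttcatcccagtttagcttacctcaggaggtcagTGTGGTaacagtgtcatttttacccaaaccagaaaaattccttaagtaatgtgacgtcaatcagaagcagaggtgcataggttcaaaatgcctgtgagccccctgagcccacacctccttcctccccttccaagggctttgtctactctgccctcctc
Nkg7: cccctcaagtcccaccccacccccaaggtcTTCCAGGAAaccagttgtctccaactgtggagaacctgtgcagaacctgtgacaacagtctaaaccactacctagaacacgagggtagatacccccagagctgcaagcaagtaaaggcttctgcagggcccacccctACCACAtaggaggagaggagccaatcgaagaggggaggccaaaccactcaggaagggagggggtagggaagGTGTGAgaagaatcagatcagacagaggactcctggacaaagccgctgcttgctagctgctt
All 4 windows held a RUNX match, at position -50 from the start in Gzma, at -93 and -34 in Gzmb, at -174 and -108 in Gzmc and at -83 in Nkg7. T-box matches stood at -15 in Gzmb and -12 in Nkg7, and STAT matches at 37 in Gzmb and -220 in Nkg7. RefSeq windows were found for 9 of the 10 genes, with 2 overlapping windows for Ncr1. Of these 10 windows, 8 held a RUNX, 5 a T-box and 3 a STAT match. Over all 32851 mouse windows of the same length the shares were 16.8% for RUNX, 14.5% for T-box and 8.30% for STAT. A match says only that these letters are present.

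Among the granzymes, Gzma was found in EC-OVA libraries alone. This granzyme (ENSMUSG00000023132, chr13:113093825-113100981, minus strand, mm10) had 109, 67 and 25 UMIs in EC-OVA libraries 1 to 3 and 0, 0 and 0 in the EC-SAL libraries. The groups did not overlap, and against a floor of 3 counts over the EC-SAL group the level was at least 78.4-fold higher in EC-OVA. It averaged 2.98 ± 1.87 CPM (UMIs of the gene per 1000000 UMIs of the library) in EC-OVA, against none in EC-SAL (SD, n = 3 each, as for all means below). With 0 UMIs in each EC-SAL library it could enter the test across genes only through its EC-OVA libraries, so no p is given. One EC-OVA-1 cell held 57 of the UMIs, and without it the groups had 144 and 0. In sums over a whole suspension, fewer cells of a type and less RNA per cell cannot be told apart.

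Gzmb, the granzyme that cleaves caspases (ENSMUSG00000015437, chr14:56258838-56262260, minus strand), had 361, 536 and 368 UMIs in EC-OVA libraries and 97, 14 and 33 in EC-SAL libraries. Its level was 18.8 ± 3.93 CPM in EC-OVA and 1.78 ± 1.51 CPM in EC-SAL, with no overlap. The rise was 3.33 ± 0.43 on the log2 scale (± SE, EC-OVA over EC-SAL; edgeR quasi-likelihood test on library sums, Benjamini-Hochberg adjusted p = 0.000503). Nkg7, which acts in the release of granules (ENSMUSG00000004612, chr7:43437073-43438249, plus strand), had 146, 99 and 96 UMIs in EC-OVA and 100, 33 and 46 in EC-SAL. It rose by 1.12 ± 0.32 (log2, edgeR, adjusted p = 0.0216), with 5.09 ± 1.26 CPM in EC-OVA and 2.23 ± 1.18 CPM in EC-SAL. The UMIs of the EC-SAL-1 library lay within the EC-OVA range, while on the CPM scale, with that library's larger total, the groups did not overlap. The call for Nkg7 was lost without EC-OVA-1 (adjusted p = 0.0728), without EC-SAL-2 (0.0532) and without EC-SAL-3 (0.0736).

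Klrd1 encodes CD94, the partner chain of the NKG2 receptors (ENSMUSG00000030165, chr6:129591782-129598775, plus strand). It had 51, 64 and 35 UMIs in EC-OVA and 13, 26 and 5 in EC-SAL, with no overlap. Its rise was 1.93 ± 0.44 (log2, edgeR, adjusted p = 0.00824), at 2.23 ± 0.590 CPM in EC-OVA and 0.562 ± 0.420 CPM in EC-SAL. Gzmc, a granzyme of the Gzmb gene cluster (ENSMUSG00000079186, chr14:56231441-56234656, minus strand), had 22, 27 and 12 UMIs in EC-OVA and 159, 39 and 5 in EC-SAL. The groups overlapped, and the log2 value of -1.50 ± 0.86 did not pass the test (adjusted p = 0.192). That value came from 1 EC-SAL-1 cell with 143 UMIs: without that library it was 0.00, and without the richest cell of each member gene 0.19. Without EC-SAL-3 it was -2.03 (adjusted p = 0.0251). Of the 31-base stretches of Gzmc transcripts 14.8% also occur in 5 other genes, most often Gzme, so its counts are uncertain.

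Reading these calls needs the background: 44.8% of the 14924 genes tested passed the threshold of 0.05, 22.5% as rises and 22.3% as falls. Apart from Gzma, 4 member genes were tested, of which 3 rose and none fell. The other 5 members were too low to be tested, so the 3 of 4 are no count over the 10. The same 3 did not overlap between groups, where 51.3% of all tested genes showed no overlap. Cell make-up moved with the groups. Lymphoid markers summed to 83.1 to 90.4 CPM in EC-OVA and 42.3 to 60.2 CPM in EC-SAL, with all 14 of 14 markers found in both. Basophil markers summed to 29.7 to 64.9 CPM in EC-OVA, with 8 of 8 found, and to 6.77 to 8.88 CPM in EC-SAL, with 7 of 8 found and the defining Mcpt8 at 0. The part of these numbers in the sums was not tested.

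**Figure D1:**
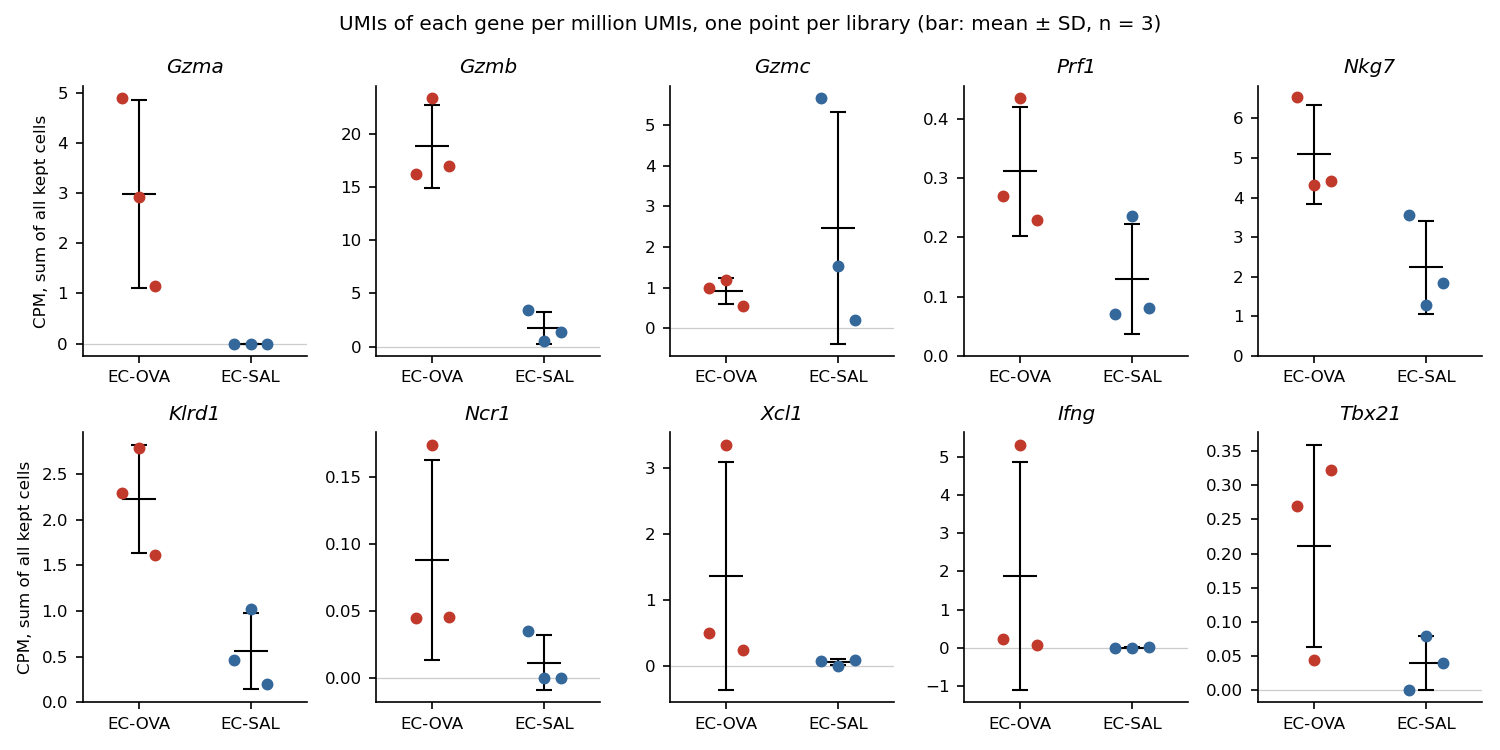
Level of each of the 10 genes in the sum of all kept cells, in CPM on a linear axis of its own for each gene, with 1 point per library (3 EC-OVA, left; 3 EC-SAL, right) and the group mean ± SD. Gzma is at 0 in all 3 EC-SAL libraries, Gzmb, Nkg7 and Klrd1 do not overlap between groups, and for Xcl1 and Ifng the EC-OVA-2 library stands far above the rest.

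The 5 genes below the filter were rare. Prf1, the perforin gene (ENSMUSG00000037202, chr10:61297833-61304680, plus strand), had 6, 10 and 5 UMIs in EC-OVA and 2, 6 and 2 in EC-SAL, a ratio of 2.46 per UMI sequenced (95% exact interval 1.11 to 5.85, for counting error only). Its libraries overlapped between the groups. Ncr1, the NK receptor NKp46 (ENSMUSG00000062524, chr7:4337724-4345164, plus strand), had 1, 4 and 1 UMIs in EC-OVA and 1, 0 and 0 in EC-SAL. With a ratio of 7.03 and an interval of 0.852 to 323, a difference in Ncr1 was not detectable at this depth. Tbx21 (ENSMUSG00000001444, chr11:97098071-97115331, minus strand) had 6, 1 and 7 UMIs in EC-OVA and 0, 2 and 1 in EC-SAL, a ratio of 5.46 (1.53 to 29.7), and the libraries overlapped.

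Xcl1 and Ifng rested largely on a single cell. Xcl1, the chemokine that attracts Xcr1-bearing dendritic cells (ENSMUSG00000026573, chr1:164931644-164935527, minus strand), had 11, 77 and 5 UMIs in EC-OVA and 2, 0 and 2 in EC-SAL. Ifng (ENSMUSG00000055170, chr10:118441046-118445892, plus strand) had 5, 122 and 2 UMIs in EC-OVA and 0, 0 and 1 in EC-SAL. One NK-like cell of EC-OVA-2 with 3673 UMIs held 119 of the Ifng and 69 of the Xcl1 UMIs, besides 2 UMIs of Ncr1, 6 of Nkg7 and 5 of Gzmb. Its class depends on the setting: it also had 3 Trbc2 UMIs, and gates on receptor UMIs placed it among alpha-beta T cells, which then held 126 of the 129 Ifng UMIs of EC-OVA, against 1 in the NK gate. The group ratio was 151 for Ifng (26.6 to 6011) and 27.2 for Xcl1 (10.3 to 102) with that cell. Without it, 10 EC-OVA and 1 EC-SAL UMIs were left for Ifng, and 24 and 4 for Xcl1. Of the 31-base stretches of Ifng transcripts 22.6% also occur in 1 other annotated gene, Gm49751, which makes its count uncertain as well.

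Counting cells rather than UMIs limits the weight of such single cells. Gzma was found in 9, 6 and 4 cells of the EC-OVA libraries and in 0, 0 and 0 of the EC-SAL libraries, where 0 of 13460 cells were positive. Gzmb was found in 36, 42 and 29 EC-OVA cells and in 17, 5 and 6 EC-SAL cells. As shares of kept cells these were 0.970 ± 0.113% in EC-OVA and 0.200 ± 0.122% in EC-SAL. The EC-OVA libraries thus had the higher share in each case, although they held fewer cells. Nkg7 was found in 31, 37 and 27 EC-OVA cells and in 22, 14 and 13 EC-SAL cells (0.862 ± 0.0797% and 0.359 ± 0.0703%). Klrd1 was found in 36, 44 and 26 EC-OVA cells and in 10, 15 and 4 EC-SAL cells (0.958 ± 0.184% and 0.214 ± 0.124%). Neither gene's shares overlapped between the groups. Gzmc was found in 9, 13 and 8 EC-OVA cells and in 14, 9 and 5 EC-SAL cells (0.271 ± 0.0542% and 0.203 ± 0.0794%). These shares overlap, and EC-SAL-1 had the most positive cells.

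The other members were in few cells. Prf1 was found in 6, 8 and 5 EC-OVA cells and in 2, 4 and 2 EC-SAL cells. Xcl1 was found in 4, 6 and 4 EC-OVA cells and in 2, 0 and 1 EC-SAL cells. Ifng was found in 2, 3 and 2 EC-OVA cells and in 0, 0 and 1 EC-SAL cells. These are small numbers, but the shares of all 3 genes were higher in every EC-OVA library. Ncr1 was found in 1, 3 and 1 EC-OVA cells and in 1, 0 and 0 EC-SAL cells. Tbx21 was found in 6, 1 and 6 EC-OVA cells and in 0, 2 and 1 EC-SAL cells, with overlap. For 8 of the 10 genes the shares did not overlap, each higher in EC-OVA (two-sided exact permutation test, p = 0.1, the lowest value possible with 3 libraries a group). No p is given for Gzma, which is among the 8 but was found in EC-OVA alone. For Ncr1 the gap rests on 1 positive cell in each of EC-OVA-1, EC-OVA-3 and EC-SAL-1, the last with more kept cells. Ifng and Xcl1 also rest on very few EC-SAL cells. The 8 are therefore not read as a result over the 10 genes. Of 22387 genes found in any cell, 25% had shares without overlap and higher in EC-OVA, 11.9% without overlap and lower, and 36.9% without overlap in all. With at least 2 UMIs asked of a positive cell, 5 of the 10 showed no overlap.

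Depth per cell was close between the groups, with a median of 5024, 4860 and 5193 UMIs in EC-OVA and 4528, 4737.5 and 4922 in EC-SAL. After every cell was thinned to 1000 UMIs, which left out 814 EC-OVA and 760 EC-SAL cells, Gzma was in 0.0873% of EC-OVA and 0% of EC-SAL cells. Gzmb was then in 0.688% of EC-OVA and 0.127% of EC-SAL cells, and Nkg7 in 0.642% and 0.275%. Free RNA gives a low share in any cell, and keratinocyte-like and fibroblast-like cells served to gauge it, with a median of 7662 and 5349 UMIs in EC-OVA and 7282.5 and 4088 in EC-SAL. Gzma was in 0 of 2416 EC-OVA and 0 of 5330 EC-SAL keratinocyte-like cells. Gzmb was in 2 and 0 of these cells, and Klrd1 in 3 and 1. Gzmc was in 5 EC-OVA and 16 EC-SAL keratinocyte-like cells, against 0 of 4001 EC-OVA and 1 of 3962 EC-SAL fibroblast-like cells. The gauges thus differed for Gzmc, and what gave its UMIs in keratinocyte-like cells was not tested. Its share of all kept cells was not read as expression in particular cells.

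NK-like cells held most Gzma. This class of 27 EC-OVA and 3 EC-SAL cells raised Eomes, Txk, Tyrobp and Fcer1g of its 13 markers. It held 184 of the 201 Gzma UMIs of EC-OVA (91.5%, 95% exact interval 86.8 to 95%), with 101, 61 and 22 UMIs in libraries 1 to 3. The interval takes UMIs as independent, though 1 cell held 57 of them, and leaves out the spread between libraries. Gzma was in 6 of 11, 4 of 11 and 2 of 5 NK-like cells, so in 12 of 27 (44.4%, 25.5 to 64.7%). The 3 EC-SAL cells of this class had none, but a number of 3 cells leaves the share there unknown. The name rests on these markers, and T cell transcripts were present too: 24 of the 27 EC-OVA cells had a UMI of an alpha-beta T cell receptor constant gene and 5 a CD3 UMI, against 11 with an NK receptor UMI and 9 with Eomes. The constant genes are not specific to alpha-beta T cells here. They were found in 43 of 44 EC-OVA gamma-delta T-like cells, and in 32 of 315 cells of a dendritic cluster with CD3 in 0. The whole NK list summed to 215 to 270 CPM over all kept cells in EC-OVA, with 11 of 13 markers found, and to 102 to 113 CPM in EC-SAL, with 10 of 13 found. Klra4 and Klra8 were at 0 in both groups and Klra7 in EC-SAL. The list also holds Tyrobp and Fcer1g, adaptors that myeloid cells and basophils use too. Its sum over all kept cells is therefore no measure of NK cells. A stricter gate on NK receptor and Eomes UMIs without CD3 took 13 EC-OVA cells and 1 EC-SAL cell, and held 136 Gzma UMIs in 8 cells (67.7% of the EC-OVA total). An EC-OVA-2 cell with 33 Gzma UMIs, 4 Eomes UMIs and no CD3 was placed in a gate on mast cell markers and is not in that number.

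The same cells held further members. Nkg7 was in 25 of the 27 EC-OVA NK-like cells (92.6%), with 108 UMIs. Prf1 was in 11 (40.7%), Xcl1 in 11, Gzmb in 10 (37.0%), Klrd1 in 8 (29.6%), Gzmc in 5, and Ncr1 and Ifng in 4 each. Tbx21 was found in 2. At least 2 member genes were present in 26 of the 27 cells, at least 3 in 22, and no cell had more than 5. The 3 EC-SAL NK-like cells had Nkg7 in all 3 and Gzmc in 2, with 33 Gzmc UMIs, 31 of them in 1 EC-SAL-2 cell. They had Prf1, Klrd1, Ncr1, Xcl1 and Tbx21 in 1 each, and no Gzmb or Ifng. At a median of 1563 UMIs per EC-OVA cell, far below the keratinocyte-like cells, an absent gene may have been missed.

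**Figure D2:**
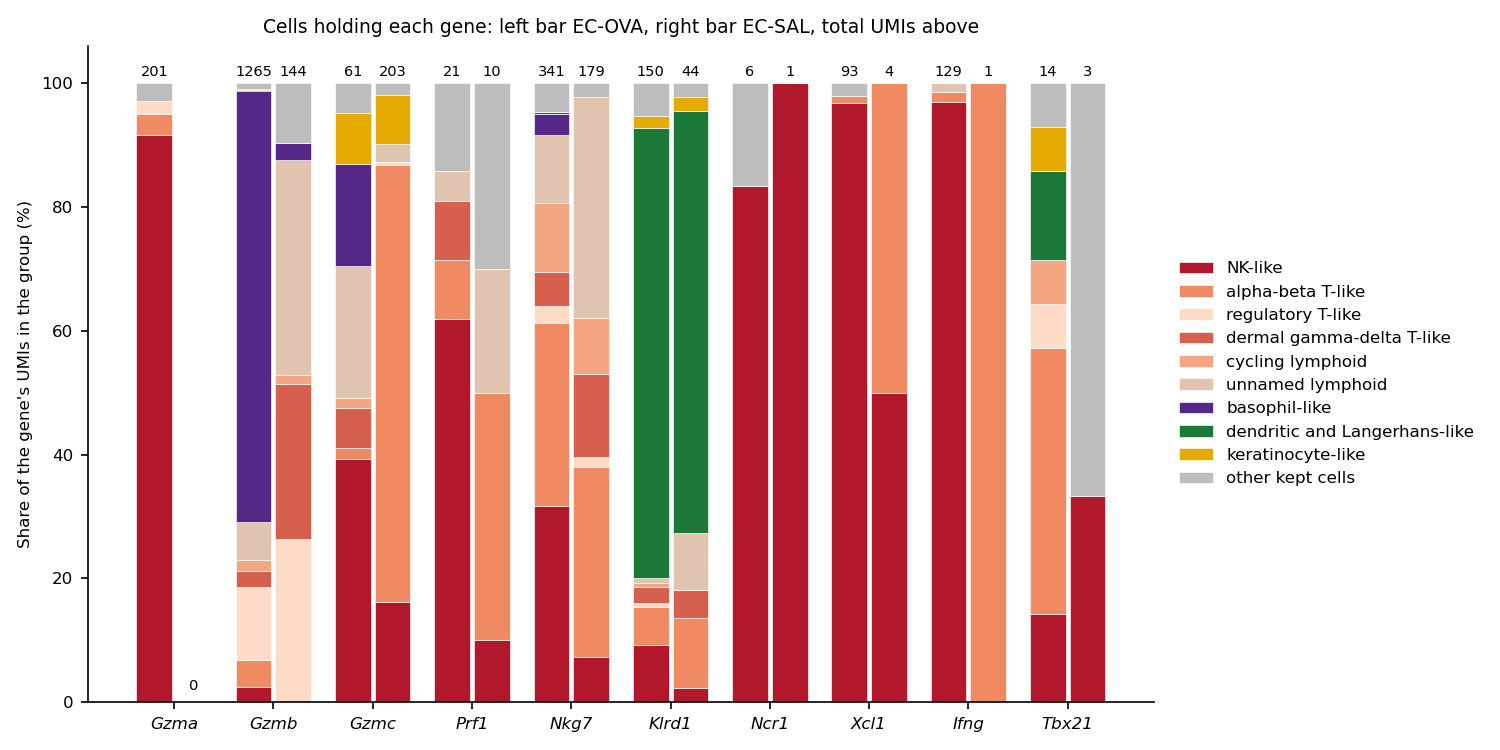
Share of each gene's UMIs in a group that each cell class holds, in percent (left bar EC-OVA, right bar EC-SAL, the gene's UMI total above each bar, colours for classes). In EC-OVA, Gzma sits mainly in NK-like cells (91.5% of 201 UMIs), Gzmb in basophil-like cells (69.6% of 1265) and Klrd1 in dendritic and Langerhans-like cells (72.7% of 150).

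Basophil-like cells held most Gzmb of the pooled EC-OVA libraries, though not of EC-OVA-1. The class raised all 8 basophil markers, and 41 of its 47 EC-OVA cells had a UMI of Mcpt8, the basophil granule protease. These cells numbered 9, 25 and 13 in EC-OVA and 1, 1 and 1 in EC-SAL, where none of the 3 had Mcpt8. Gzmb UMIs in them numbered 157, 465 and 259 in EC-OVA and 4, 0 and 0 in EC-SAL. Pooled over the EC-OVA libraries, that was 69.6% of the Gzmb UMIs (67.0 to 72.2%, for counting error only). The interval takes UMIs as independent, though many came from the same cell, and leaves out the spread between libraries. In EC-OVA-1 lymphoid cells held more Gzmb, with 198 UMIs against 157 in basophil-like cells. Gzmb was in 3 of 9, 21 of 25 and 11 of 13 cells, in all 35 of 47 (74.5%, 59.7 to 86.1%), with EC-OVA-1 low. A positive cell held 25.2 Gzmb UMIs on average, with a median of 15 and up to 104. Of the other granule genes, Nkg7 was in 9 of the 47 cells and Gzmc in 6, and no UMI of Gzma, Prf1, Klrd1 or Ifng was found. This allows up to about 6.38% of cells with a UMI of each. That limit is 3 over the number of cells, and a two-sided exact interval would reach higher. At a median of 1416 UMIs per cell, cells that express these genes may have gone unseen. With only 3 EC-SAL cells no test of Gzmb within basophil-like cells was made.

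**Figure D3:**
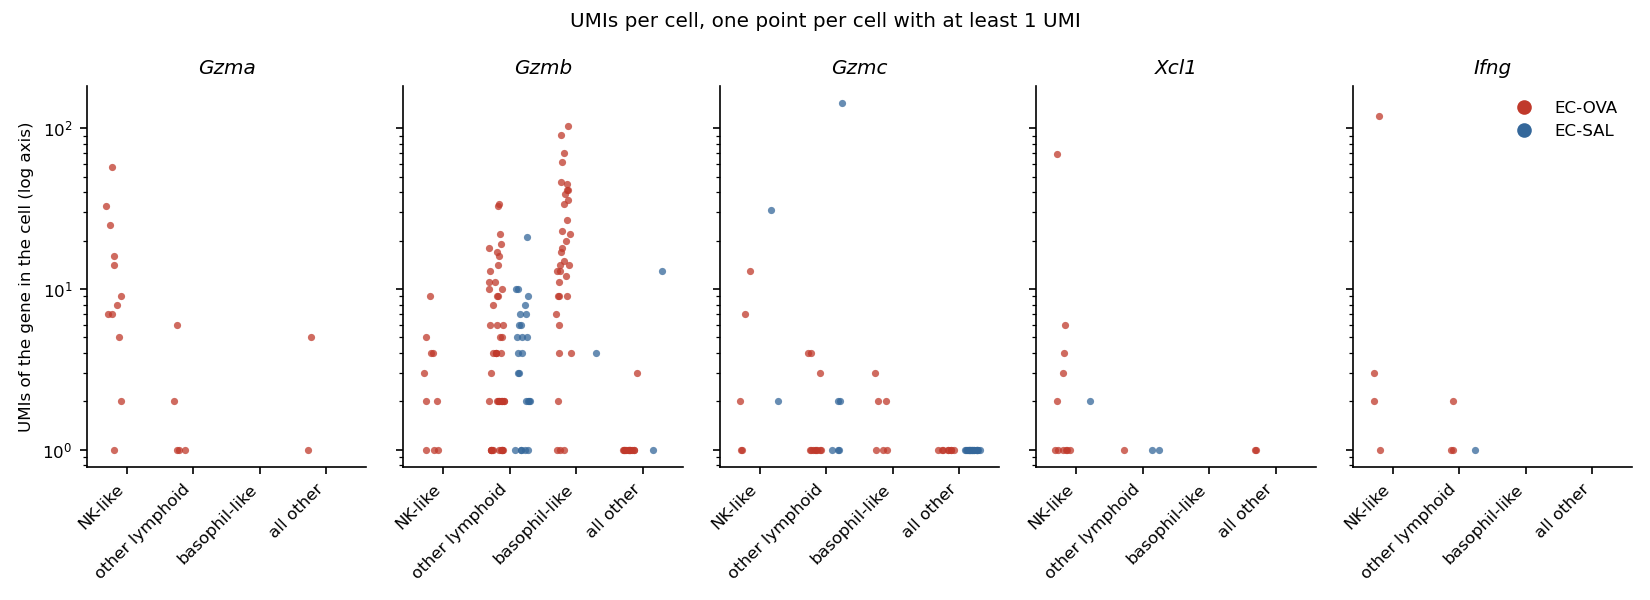
UMIs of Gzma, Gzmb, Gzmc, Xcl1 and Ifng in each cell with at least 1 UMI, on a log axis, by cell class (1 point per cell, EC-OVA left of EC-SAL). Gzmb reaches 104 UMIs in a basophil-like cell, and single cells carry 119 Ifng UMIs in EC-OVA and 143 Gzmc UMIs in EC-SAL.

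Outside basophil-like cells Gzmb was found mainly in lymphoid cells in both groups. Regulatory T-like cells had it in 23 of 46 EC-OVA cells (exact interval 34.9 to 65.1%) and in 6 of 14 EC-SAL cells (42.9%, 17.7 to 71.1%). Their summed level was 1853 CPM in EC-OVA and 1673 CPM in EC-SAL. With 3 to 7 EC-SAL cells per library this class was not tested. Dermal gamma-delta T-like cells had Gzmb in 5 of 16, 2 of 15 and 1 of 13 EC-OVA cells and in 5 of 15, 2 of 15 and 2 of 14 EC-SAL cells. Mean shares were 17.4 ± 12.3% in EC-OVA and 20.3 ± 11.3% in EC-SAL, a difference within the spread of the libraries (exact permutation p = 0.6). Nkg7 was in 4 of the 44 EC-OVA and 6 of the 44 EC-SAL gamma-delta T-like cells (exact permutation p = 0.6 for the shares), Klrd1 in 4 and 1, Prf1 in 2 and 0, and Gzma in neither. The Prf1 count depends on the setting: gates on receptor UMIs gave 2 Prf1-positive gamma-delta T cells in EC-OVA-2 and 2 in EC-SAL-2.

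Alpha-beta T-like cells, 58 in EC-OVA and 17 in EC-SAL, had Nkg7 in 25 (43.1%) and 7 (41.2%). Gzmb was in 5 EC-OVA cells, with 54 UMIs in EC-OVA-1, 1 in EC-OVA-2 and 0 in EC-OVA-3, and in 0 EC-SAL cells, so 1 library carried nearly all of it. Tbx21, the type 1 regulator, was in 5 EC-OVA and 0 EC-SAL cells. This class held the EC-SAL-1 cell with 143 Gzmc UMIs, which had 5334 UMIs in all and 13 of Nkg7, while the EC-OVA cells had 1 Gzmc UMI. Gzma was in 2 EC-OVA cells, Prf1 in 2 EC-OVA and 2 EC-SAL cells, and Ifng in 2 and 1. The EC-SAL-2 cell with 3 Prf1 UMIs had 11 UMIs of the gamma-delta receptor gene Trdc and 2 of Trbc2, so its T cell type is uncertain. Cycling lymphoid cells, 17 in EC-OVA and 2 in EC-SAL, had Gzmb in 5 and 1, and Nkg7 in 4 and 1. In the lymphoid clusters left without a name, 73 EC-OVA and 72 EC-SAL cells, Gzmb was in 7 and 9 cells and Nkg7 in 16 and 27. The Nkg7 shares there were 21.8 ± 2.51% in EC-OVA and 38.9 ± 6.83% in EC-SAL, without overlap (exact permutation p = 0.1, 1 of 5 such within-class comparisons). The clusters pooled there differ in make-up between the groups: Nkg7 was in 9 of 51 EC-OVA and 7 of 39 EC-SAL cells of the cluster led by Bmp2, and in 6 of 19 and 18 of 30 cells of the cluster led by Ctse.

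Klrd1 was found mostly outside lymphoid cells. Dendritic and Langerhans-like cells held 109 of its 150 EC-OVA UMIs (72.7%) and 30 of its 44 EC-SAL UMIs (68.2%). It was in 27 of 151, 33 of 178 and 18 of 134 of these cells in EC-OVA and in 5 of 84, 11 of 77 and 2 of 83 in EC-SAL. EC-SAL-2 lay within the EC-OVA range, and the shares of 16.6 ± 2.78% in EC-OVA and 7.55 ± 6.10% in EC-SAL gave an exact permutation p of 0.2. The median depth of the class was 4464 UMIs in EC-OVA and 4068 in EC-SAL. In keratinocyte-like cells, which are deeper, Klrd1 was in 3 of 2416 and 1 of 5330 cells, so the dendritic share lies above that background. Cells of the cluster led by Cd209e, Ccr7 and Mgl2 carried it most often, in 61 of 315 EC-OVA cells (19.4 ± 0.886%) and 17 of 162 EC-SAL cells (10.5 ± 7.85%, exact permutation p = 0.3). The cluster with Xcr1 and Clec9a had Klrd1 in 14 of 129 EC-OVA and 1 of 31 EC-SAL cells, and the Cd207-bearing cluster in 3 of 19 and 0 of 51.

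**Figure D4:**
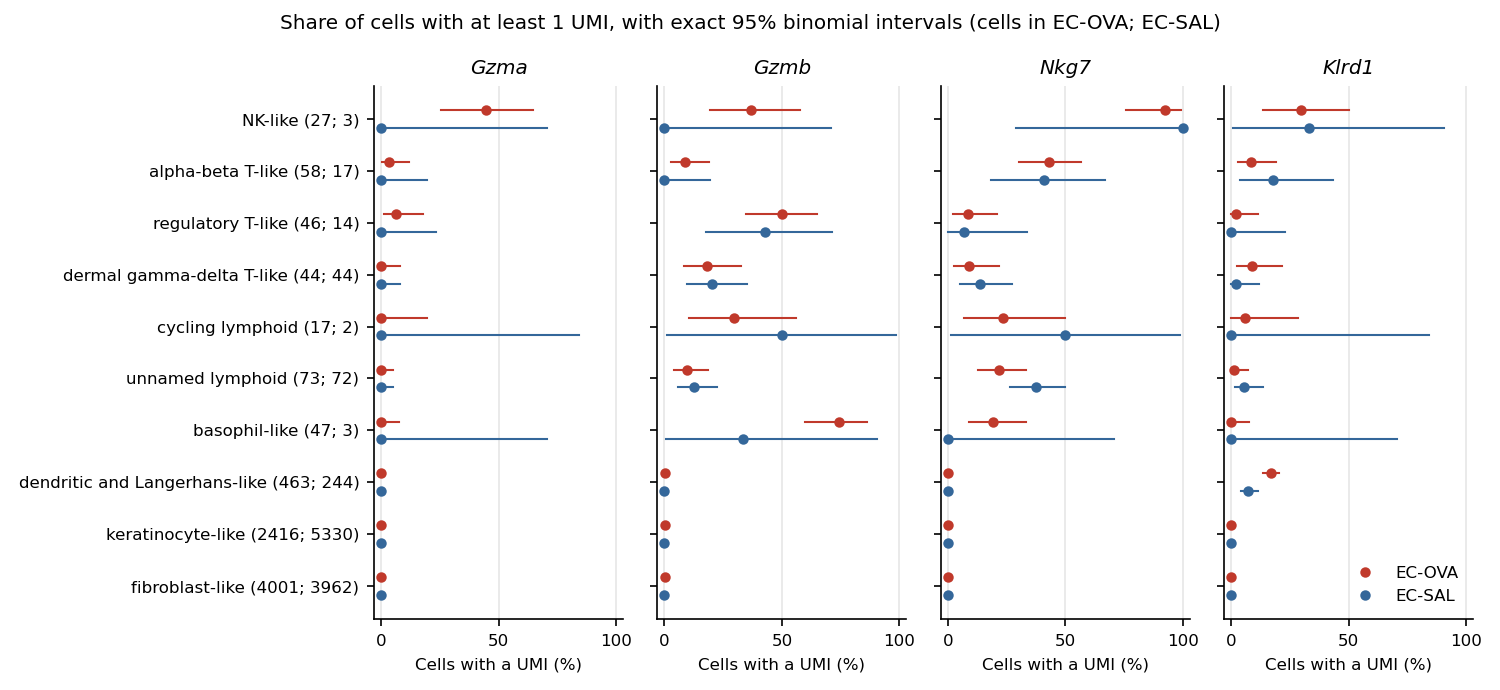
Share of cells with at least 1 UMI of Gzma, Gzmb, Nkg7 and Klrd1 in each cell class, in percent, pooled over the 3 libraries of a group (EC-OVA above EC-SAL, the number of cells in brackets), with exact 95% binomial intervals. Gzma peaks in NK-like (44.4% in EC-OVA), Gzmb in basophil-like (74.5%) and regulatory T-like cells (23 of 46), and Klrd1 also marks dendritic and Langerhans-like cells (16.8% in EC-OVA and 7.38% in EC-SAL).

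In sums over dendritic and Langerhans-like cells, a comparison added after these values were seen, Klrd1 gave 0.70 ± 0.44 (log2, edgeR, adjusted p = 0.364) where 11.2% of 4660 genes passed, 4.44% as rises and 6.76% as falls, and 30.2% did not overlap. Without EC-SAL-2 the value was 1.72 (adjusted p = 0.0466). Klrd1 thus rose in the sums over all cells, while a difference per dendritic cell did not pass the test with all libraries. These cells numbered 463 in EC-OVA and 244 in EC-SAL. The dendritic marker list, summed over all kept cells, moved the other way, at 469 to 514 CPM in EC-OVA and 574 to 603 CPM in EC-SAL. All 10 of 10 markers were found in both groups. The list includes Epcam, the epithelial cell adhesion molecule, and which cells gave its UMIs was not tested. The sum is therefore no measure of dendritic cells alone.

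Among lymphoid cells alone, fewer differences were seen. Gzma was in 9 of 87, 5 of 95 and 3 of 83 EC-OVA lymphoid cells and in 0 of 152 EC-SAL ones. By 3 over the number of cells, this allows up to about 1.97% of cells with a UMI there. That limit is on cells with a UMI, not on cells that express the gene, at a median of 1919 UMIs in EC-OVA and 2054.5 UMIs in EC-SAL lymphoid cells. The Gzma level of the lymphoid sums was at least 36.4-fold higher in EC-OVA, again with no p. Gzmb had 591 CPM in EC-OVA and 319 CPM in EC-SAL lymphoid sums, a log2 value of 0.82 ± 0.39 that did not pass (adjusted p = 0.487), although it did without the filter on low counts (0.87, adjusted p = 0.00201). Nkg7 was in 26, 29 and 23 EC-OVA and 21, 13 and 11 EC-SAL lymphoid cells, or 29.4 ± 1.48% and 29.1 ± 3.39% (exact permutation p = 1.0), and its log2 value was 0.07 ± 0.24 (adjusted p = 0.974). Gzmc passed the threshold with -2.74 ± 0.66 (adjusted p = 0.0476), but the groups overlapped, and without EC-SAL-1 it gave -1.25 (adjusted p = 0.602) and without the richest cells -0.72 (adjusted p = 0.826). DESeq2 did not call it.

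Of 2725 genes tested in lymphoid sums 1.32% passed, 0.734% as rises and 0.587% as falls, and 15.3% did not overlap between groups. Apart from Gzma, which entered through EC-OVA alone, 1 of the 3 member genes tested passed, the overlapping Gzmc. Shares of positive lymphoid cells did not overlap for Gzma (6.41 ± 3.51% in EC-OVA, 0% in EC-SAL). As it was found in EC-OVA alone, no p is given for it. Those of Xcl1 did not overlap either (4.49 ± 0.829% and 1.84 ± 1.63%, exact permutation p = 0.1). Of 12927 genes, 4.73% showed no overlap with higher EC-OVA shares, 4.76% with lower ones and 9.48% in all. Thinned to 1000 UMIs, Gzma was in 3.91% of EC-OVA and 0% of EC-SAL lymphoid cells, and Xcl1 in 2.17% and 0.556%, now with overlap. The other 8 overlapped between the groups. Gzmb was in 27, 17 and 14 EC-OVA and 15, 5 and 5 EC-SAL lymphoid cells (exact permutation p = 0.4). Klrd1 was in 9, 5 and 6 EC-OVA and 5, 3 and 1 EC-SAL lymphoid cells (exact permutation p = 0.5).

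The make-up of the lymphoid cells differed between groups. NK-like cells were 12.6, 11.6 and 6.02% of lymphoid cells in EC-OVA and 1.56, 2.17 and 2.38% in EC-SAL. Their share rose by 2.27 ± 0.74 (log2, edgeR on cell numbers, adjusted p = 0.0151 over 6 classes). The call depended on the settings: it was lost without EC-SAL-2 (adjusted p = 0.0659) or EC-SAL-3 (0.0550), and with 7 in place of 3 EC-SAL cells in the class the value was 1.22 when the members were allowed in the clustering and 1.12 at 2 other resolutions. Alpha-beta T-like cells rose by 0.96 ± 0.32 (adjusted p = 0.0151) and regulatory T-like cells by 0.90 ± 0.40 (adjusted p = 0.0325). The share of gamma-delta T-like cells of the dermis fell by 0.80 ± 0.24, with 44 cells in each group (adjusted p = 0.0151). As a share of all kept cells the same class was higher in EC-OVA, at 0.436, 0.385 and 0.382%, against 0.30, 0.344 and 0.341% in EC-SAL. All 6 classes passed with every library in the fit, and without EC-SAL-2 or without EC-SAL-3 only the unnamed lymphoid cells did. Their share fell by 0.78 ± 0.13 with every library in (log2, edgeR on cell numbers, adjusted p = 0.00712). The calls of the other classes named here were lost in both of these fits. The part of this make-up in the lymphoid sums was not tested.

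**Figure D5:**
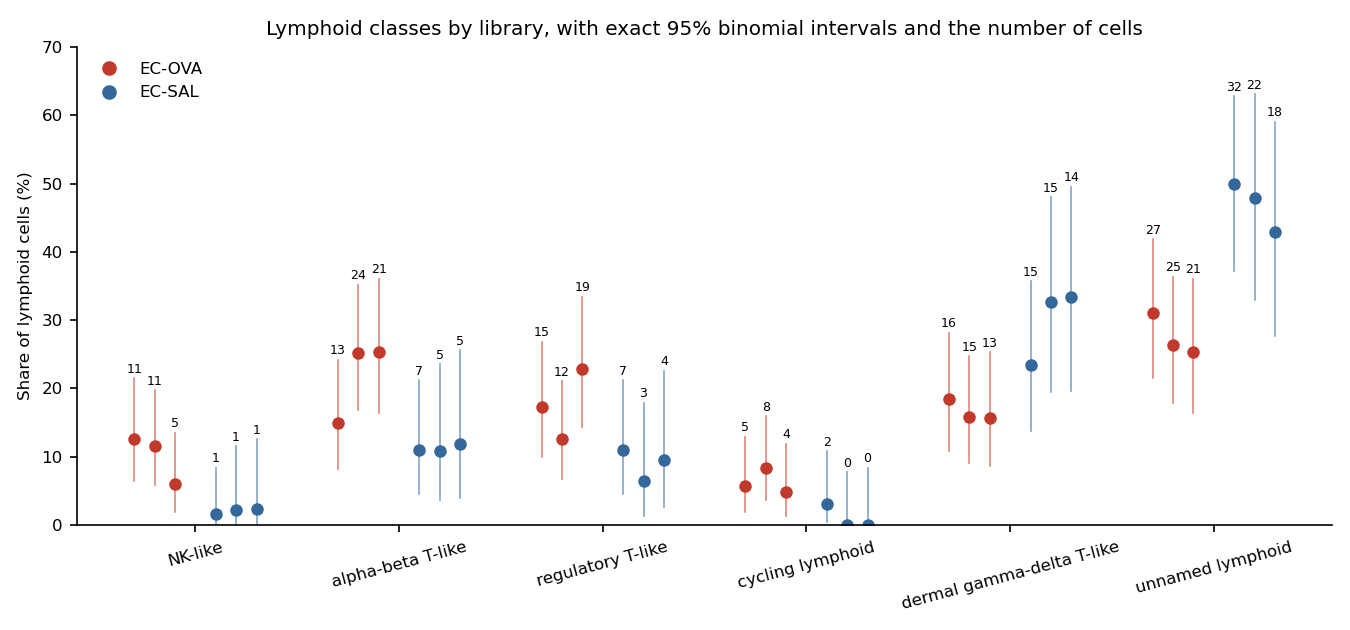
Share of lymphoid cells in each class, in percent, with 1 point per library (3 EC-OVA left of 3 EC-SAL), exact 95% binomial intervals and the number of cells. NK-like cells make up 6.02 to 12.6% in EC-OVA and 1.56 to 2.38% in EC-SAL, and gamma-delta T-like cells lie lower in EC-OVA as a share of lymphoid cells, though higher as a share of all kept cells.

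Which genes were found in the same cells was counted, with no test. Of the 19 Gzma-positive EC-OVA cells, 16 had Nkg7, 9 Prf1, 8 Gzmb and 0 Gzmc, while 10 had Eomes, 4 a CD3 gene and 13 a T cell receptor constant gene. Of the 107 Gzmb-positive EC-OVA cells, 31 had Mcpt8, 51 a CD3 gene, 13 Foxp3, 9 Prf1 and 8 Gzma. The 28 Gzmb-positive EC-SAL cells had a CD3 gene in 27 and Mcpt8 in 0. Gzmb-positive EC-OVA cells thus included basophil-like and T cell profiles, while some had neither Mcpt8 nor a CD3 gene. NK-like cells were 4, 5 and 1 of them in libraries 1 to 3. In EC-SAL the Gzmb-positive cells were nearly all CD3-bearing. Nkg7-positive cells had a CD3 gene in 46 of 95 EC-OVA and 39 of 49 EC-SAL cells. Klrd1-positive cells had Nkg7 in only 15 of 106 EC-OVA and 4 of 29 EC-SAL cells. All 7 Ifng-positive and 12 of the 14 Xcl1-positive EC-OVA cells had Nkg7. Single cells of other classes also held members: a fibroblast-like EC-OVA-3 cell had Gzma, Gzmb, Nkg7, Ncr1, Xcl1 and Eomes together.

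Genes around the members were read from 8 lists in the sums over all cells, beside 22.5% of all tested genes that rose, 22.3% that fell and a median log2 value of -0.00. Of the other granule proteins and granzyme inhibitors 7 of 12 were tested, 3 rose and none fell (median 0.78). Srgn, the granule proteoglycan, rose by 1.35 ± 0.05, and the granzyme B inhibitor Serpinb9 by 0.79 ± 0.17. Serpinb6b, another serpin, rose by 0.91 ± 0.27. All 8 genes of the release machinery were tested, of which 3 rose and 2 fell (median 0.11): the actin regulators Coro1a (1.72) and Was (1.01) and the priming factor Unc13d (0.84) rose, and Stxbp2 (-0.35) and Rab27a (-0.67) fell. Among death ligands and receptors 3 of 5 tested rose and 1 fell (median 0.24), with Fas at 0.24, Tnfrsf10b at 0.26 and Tnfsf10 at 0.63, and with Tnf at -0.55.

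All 7 tested of the 16 NK receptor and adaptor genes rose (median 1.19), again beside 22.5% of all tested genes. The adaptors Fcer1g (1.19 ± 0.10) and Tyrobp (1.13 ± 0.13) are also used by myeloid cells and basophils. The receptor Cd244a rose by 1.59 ± 0.18. Of the NK ligands on other cells, 5 of 8 tested rose and 2 fell (median 0.46): Pvr (0.23), H2-T23 (0.56) and H2-Q7 (0.58) were among those that rose, and Nectin2 (-0.36) and H60c (-1.03) were those that fell. Type 1 transcription factors rose in 7 of 9 tested and fell in 1 (median 0.76), led by Hlx (1.91 ± 0.11), Irf8 (1.30 ± 0.10) and Zeb2 (0.76 ± 0.06). Irf8 is also known for dendritic cells. Type 1 cytokines and receptors rose in 6 of 10 tested and fell in 1 (median 0.53), with the interferon-gamma receptor chain Ifngr2 at 0.50, Il15ra at 0.39 and Il15 at 0.56. The chemokine list had 9 rises and 2 falls in 11 tested (median 1.02): the receptor Cxcr6 (0.72 ± 0.11) and the interferon-induced ligand Cxcl9 (2.19 ± 0.30) rose, and Cxcl16 fell (-0.37 ± 0.04). Each adjusted p was under the threshold in edgeR's quasi-likelihood test, and leukocyte numbers moved with these sums, as given above.

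In lymphoid sums, where 0.734% of all tested genes rose and 0.587% fell, 3 genes of these lists rose and none fell: 1 of 2 tested chemokines and receptors, 1 of 3 transcription factors and 1 of 5 granule proteins and inhibitors. Ccl5, a chemokine of killer and memory T cells, had 677 CPM in EC-OVA and 25.9 CPM in EC-SAL (log2 4.70 ± 0.55, edgeR). The EC-SAL lymphoid sums, of 97273 to 151161 UMIs, held few UMIs of Ccl5. It thus entered the test, and the count above, through its EC-OVA libraries, and no p is given. Irf8 rose by 2.72 ± 0.46 (adjusted p = 0.00384) and Serpinb9 by 2.09 ± 0.49 (adjusted p = 0.0412). Both Ccl5 and Irf8 were among the leading genes of the NK-like cluster. Of the tested genes of the other lists, 2 of the release machinery, 2 death genes, 5 NK receptors and adaptors, 2 NK ligands and 5 cytokines and receptors, none passed.

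Across 38 clusters the genes most alike in level were described by Pearson's r of log2(CPM + 1); the points share libraries and depth. Gzma was most like Xcl1 (0.92), Eomes (0.91) and Gm31597 (0.89). Among the genes most like Gzmb were Sytl3 (0.95) and Skap1 (0.94), genes of lymphocytes. Among those most like Nkg7 were Skap1 (0.97) and Lat (0.95), which act in T cell receptor signalling. Those most like Gzmc included Nkg7 (0.94) and Sytl3 (0.90). Prf1 was most like the NK receptor Klrc1 (0.90), Ctsw (0.90) and Ifng (0.89). Klrd1 was most like Gpr171, Serpinb6b and Grap2, at 0.91 each. Xcl1 was most like Ifng (0.95), Gzma (0.92) and Il12rb2 (0.90), and Ifng like Xcl1 (0.95), Prf1 (0.89) and Gzma (0.86). The secreted factors and Gzma thus peaked in the same cluster. There, 1 EC-OVA-2 cell held 119 Ifng and 69 Xcl1 UMIs, so the values of these 2 genes rest largely on that cell. Tbx21 was most like Trat1 (0.90), Apol9b (0.90) and Gimap3 (0.88). Ncr1, with 7 UMIs in all, was most like A230060F14Rik (0.95).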

How the data were processed

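The authors deposited UMI counts per gene and barcode for 3 EC-OVA and 3 EC-SAL libraries, made with Cell Ranger 3.1.0 per the file headers; STAR and mm10 are named in the submitters' processing notes. Read depth and annotation release: neither is given in the sources used here. Groups are the labels' treatment.

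Cells needed 300 genes and at most 15% mitochondrial UMIs, which removed some barcodes (29.9 to 32.2% in EC-OVA, 32.8 to 35.9% in EC-SAL), and the highest doublet scores were removed (Scrublet in scanpy 1.11.5, at a fraction of 0.008 per 1000 barcodes), since the tool's own threshold marked 1 to 14 barcodes a library. Of 38206 barcodes 24432 were kept. Leiden clustering (resolution 1.0, seed 1; 2000 variable genes, 40 components, 20 neighbours) gave 31 clusters and, among lymphoid cells, 8. A name needed 3 markers raised at least 2-fold in 25% of cells. The member genes were in neither clustering nor marker lists.

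UMIs were summed per library and tested with edgeR 4.0.16 in R 4.3.3 (filterByExpr, TMM, quasi-likelihood test, Benjamini-Hochberg over all genes tested, threshold 0.05), with DESeq2 1.42.0 as an alternative. For shares the exact permutation test over libraries is two-sided, and their 95% Clopper-Pearson intervals cover only counting error. Each model was checked on simulated data. No test was run on finer classes with under 10 cells in a library. Named genes are the 10 members, up to 3 rises and 3 falls of each list without overlap between groups, by the smallest p, and the 3 genes most alike among those with at least 30 UMIs; single cells and clusters named beside them were chosen after their values were seen. The members and lists were chosen with earlier results of these data known. Coordinates are mm10, counted from 1, from GENCODE release M21. Some genes that this rule names are not reported here.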

Additional observations from a re-analysis of the deposited data

Results flagged for a closer look

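Gzmb was also found in barcodes that the cell filters left out. The barcodes removed for few genes or a high mitochondrial share held 94 Gzmb UMIs in 10 of 5104 EC-OVA barcodes (0.196%, 95% exact interval 0.0940 to 0.360%), with 70, 14 and 10 UMIs in libraries 1 to 3. In EC-SAL 0 of 7330 such barcodes had one. The barcodes removed for their doublet score held 71 Gzmb UMIs in 7 of 510 EC-OVA barcodes and 0 in 830 EC-SAL barcodes. Nkg7 in barcodes that failed the cell filters had 11 UMIs in 5 EC-OVA barcodes and 5 UMIs in 5 EC-SAL barcodes. The classes of these barcodes were not tested.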

How the results depend on the processing

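In sums over all kept cells the rises of Gzmb and Klrd1 kept their calls under every alternative run; Nkg7 lost its call without 3 libraries in turn, as given above. Gzmc ran from -2.03 (without EC-SAL-3) to 0.00194 (without EC-SAL-1) and was positive too, in an alternative chosen after seeing the data, without the richest cells (0.19). The lymphoid count of 36 genes became 17 with DESeq2, 101 without the low-count filter, 21 with doublets kept, 85 with a gate in place of clusters and 13 to 40 without each library. Without the filter Xcl1 and Ifng were also called in both sums, and Gzmb in lymphoid sums. Xcl1 passed the filter and was called over all cells without EC-OVA-3 and with the replicate block. It could pass only through its EC-OVA libraries. Over all EC-SAL cells Xcl1 had 4 UMIs and Ifng 1, while 1 EC-OVA-2 cell held 69 and 119. These calls of Xcl1 and Ifng were therefore not read as results. Lymphoid Nkg7 ran from -0.15 (without EC-OVA-1) to 0.39 without single libraries, with -0.14 without EC-SAL-2. The dendritic count of 522 became 299 with DESeq2 and 308 to 435 without each library.

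The rise of NK-like cells (2.27) was 1.22 with the members in the clustering, 1.12 at resolution 0.6 or 1.5 (none called) and 2.08 to 2.51 without single libraries; of 6 classes called, 2 were left at resolution 0.6 and 1 to 6 without single libraries. With at least 2 UMIs asked, 5 instead of 8 members had no overlap in all cells and 1 instead of 2 in lymphoid cells, where leaving out libraries gave up to 4. Differences of lymphoid shares, in percentage points, turned sign for Gzmc (-0.587 with at least 2 UMIs, and -0.0374 to 2.68 without single libraries), Prf1 (-0.374 with at least 2 UMIs), Nkg7 (-0.882 with stricter cells, and -1.16 to 2.15 without single libraries) and Ncr1 (-0.105 thinned). With the gates, NK cells held 67.7% of Gzma and 1.08% of Xcl1 UMIs in EC-OVA, and basophils 64.8% of Gzmb UMIs. The causes were not tested.

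Replicate numbers did not pair the libraries: same-numbered deviations correlated at 0.0566, 0.0460 and -0.0549, and not every library correlated best with its own number. With a replicate block the lymphoid count was 68 and Gzmb was called there (0.96, adjusted p = 0.00258), while the count over all cells was 6673. Depth limits the rare members: Ncr1, Tbx21 and Prf1 have 6, 14 and 21 UMIs in EC-OVA and 1, 3 and 10 in EC-SAL.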
